A study of Mus musculus with 12 samples.

Results

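The cells described here are germinal center (GC) B cells in S phase that the authors annotated as moving from the light zone to the dark zone (LZtoDZ), set against light zone (LZ) cells in the same phase. Members were the cells with the authors' cell cycle call S and the state LZtoDZ in the deposited cell table. They numbered 106 of the 6000 cells of the series and 106 of its 165 LZtoDZ cells, with 32, 32 and 42 from mouse 1, mouse 2 and mouse 3. The S phase LZ cells numbered 735 (171, 249 and 315 by mouse), and 950 S phase dark zone (DZ) cells (240, 354 and 356) served as a further state.

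The study profiled IgD-negative, eYFP-positive B cells and plasma cells of draining lymph nodes by droplet-based 5' single-cell RNA sequencing. All 3 states come from the same 3 mice, which had been given NP-KLH, a hapten-carrier antigen, in Sigma Adjuvant System and tamoxifen by gavage, and were sampled on day 16, 5 days after tamoxifen. The labels name no genotype, age or driver for the eYFP reporter, so the cells that the label selects are not described further here. Cells of the mice were marked with antibody hashtags, pooled and captured together, and no cell is tied to 1 of the 12 libraries, so state differences were read within each mouse.

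In the GC, B cells mutate their antibody genes and divide in the dark zone, and compete for antigen and help from T follicular helper cells in the light zone. A minority of light zone cells receives strong help, induces the transcription factor Myc, grows in mass and returns to the dark zone to divide. Growth before division depends on ribosome production, which begins in the nucleolus, and on the supply of nucleotides, polyamines and folded protein. S phase is the part of the cell cycle in which DNA is copied. Restricting both states to S phase holds the authors' phase call the same on both sides, and asks what else separates them.

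S phase took a larger share of the LZtoDZ state than of the other GC states. It held 74.4%, 57.1% and 63.6% of the LZtoDZ cells of mice 1 to 3, against 32.3%, 35.4% and 32.1% of the LZ cells and 31.9%, 32.5% and 29.7% of the DZ cells. The means were 65.1% ± 8.73, 33.3% ± 1.86 and 31.4% ± 1.44 for LZtoDZ, LZ and DZ cells (SD, n = 3 mice). The shares of LZtoDZ and LZ cells did not overlap, and 3 pairs cannot give an exact sign-flip permutation p below 0.25.

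LZtoDZ cells held far more RNA molecules than LZ cells of the same phase. The median was 14339.5, 20747.5 and 22289.5 unique molecular identifiers (UMIs, 1 per captured RNA molecule) per LZtoDZ cell in mice 1 to 3, against 7523, 8029 and 8229 per LZ cell. Mean UMIs per cell were 2.52, 2.58 and 2.47 times as high in the LZtoDZ cells of mice 1 to 3 as in their LZ cells. Of the LZtoDZ cells 55 of 106 lay above 20000 UMIs, against 8 of 735 LZ and 25 of 950 DZ cells. Summed per mouse, the LZtoDZ cells gave 625844, 704027 and 913275 UMIs, the LZ cells 1325266 to 2777793 and the DZ cells 2428367 to 3671650. Unless stated otherwise, levels below are CPM of these sums (UMI counts scaled to a common total, with edgeR's TMM factors). They are relative to the total and say nothing of the total itself.

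**Figure D1:**
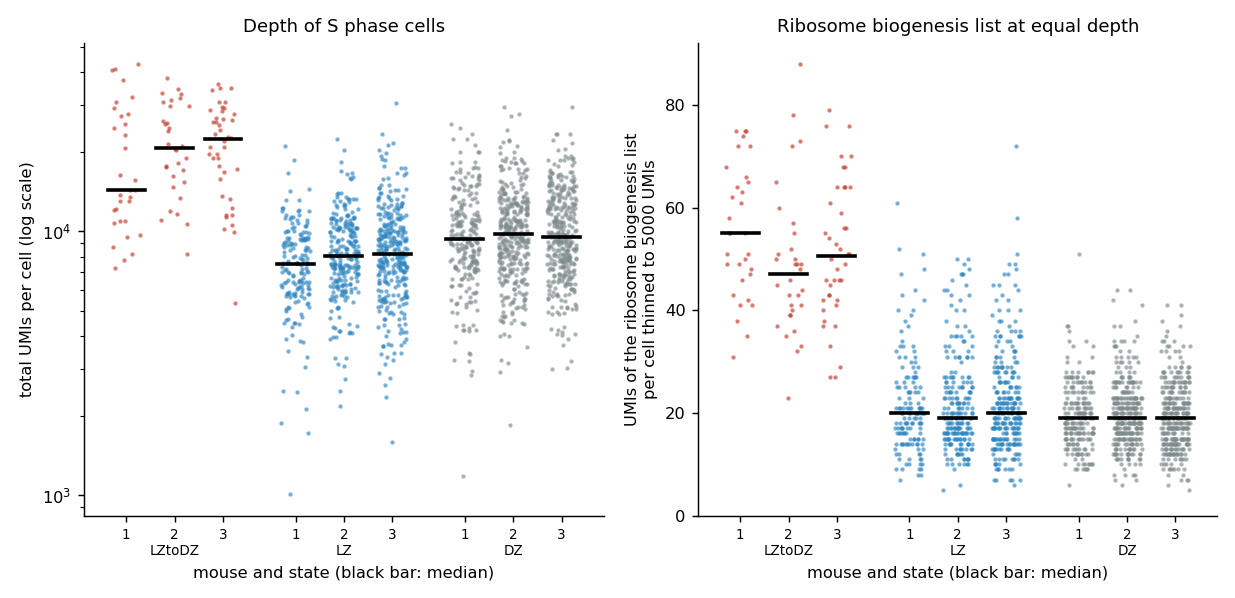
Each point is 1 S phase cell, grouped by state and mouse, with total UMIs on a log axis (left) and UMIs of the 34 genes of the ribosome biogenesis list in cells thinned to 5000 UMIs (right), and black bars are medians. LZtoDZ medians lie above LZ and DZ medians in both panels, with thinned medians of 55, 47 and 50.5 against 20, 19 and 20 in LZ cells of mice 1 to 3.

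The LZtoDZ state begins at a value of the authors' activation score: every LZtoDZ cell scored at least 0.581, and S phase LZ cells reached 0.577. This boundary is how the states are told apart and is no check of the label. Which genes enter that score is not stated in the labels or files, so genes within it are not independent of the annotation. Near this boundary some levels lay close together and others did not, in CPM of raw totals with the cells of all 3 mice pooled. The ribosome biogenesis list summed to 8165 CPM in the 19 LZtoDZ cells within 0.02 above it and 8442 CPM in the 13 LZ cells within 0.02 below it, beside 11027 CPM in the remaining LZtoDZ and 4464 CPM in the remaining LZ cells. In the same cells next to the boundary Myc had 122 CPM on the LZtoDZ and 41.5 CPM on the LZ side, Srm 322 and 196 CPM, and Fabp5 46.5 and 94.9 CPM. These single-gene levels rest on few cells pooled over mice, have no spread between mice and were not tested. Of the 106 LZtoDZ cells 104 fell in the authors' cluster 5, with 28 S phase LZ and 22 S phase DZ cells. With the cells of all mice pooled, the median dark zone score of the authors was -0.0928 in LZtoDZ, -0.0185 in LZ and 0.0873 in DZ cells. Their light zone score was 0.0508, 0.0457 and -0.0370 in the same states. The LZtoDZ median was the lowest of the 3 states on the dark zone score, also within each mouse. On the light zone score it was 0.114, 0.0102 and 0.0367 in mice 1 to 3, against 0.0533, 0.0444 and 0.0431 in LZ cells. LZtoDZ cells thus lay above LZ cells only in mouse 1.

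RNA of other cell types was scarce. The NK cell, myeloid and stromal lists, with only 3, 6 and 1 genes in the matrix, summed to 0 CPM in the LZtoDZ sums of all 3 mice. The myeloid list had 0.928 to 3.48 CPM in LZ and 0.269 to 18.7 CPM in DZ sums. In LZtoDZ sums the T cell list had 2.27 to 5.97 CPM against 0.745 to 2.32 CPM in LZ sums, and the erythroid list 0 to 5.97 CPM against 6.62 to 17.9 CPM. No gene of these lists passed the filter on low counts. At least 2 UMIs of such genes were seen in 3 of 106 LZtoDZ, 14 of 735 LZ and 12 of 950 DZ cells. The cell barcodes form 2 series that share no barcode, and 1 LZtoDZ cell belongs to the second.

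The comparison of LZtoDZ with LZ cells in S phase covered 7219 genes. At an adjusted p under 0.05, 1571 were higher (21.8%) and 1406 lower (19.5%) in LZtoDZ cells, 41.2% in all, and 344 of the increases and 487 of the decreases were at least 2-fold. The median log2 fold change of all genes was -0.02. Genes of ribosome biogenesis, polyamine and nucleotide synthesis, protein folding and translation were higher, and genes of antigen presentation, B cell identity and the GC program were lower. A lower share of the RNA was rarely a lower number of molecules: of the 1406 genes lower in CPM, 124 had fewer UMIs per cell in all 3 mice and 812 had more. The count of calls was 1451 after matching each LZtoDZ cell to the LZ cell of nearest depth in its mouse and 1558 with equal cell numbers and no matching. Both keep as many LZ as LZtoDZ cells, and the cause of the lower counts was not tested. Matched LZ cells still had a lower median (20627.5 UMIs in LZtoDZ cells against 13257.5 in the matched LZ cells). Of the calls after matching for depth 1415 were calls of the same direction in the full comparison. The DESeq2 Wald test called 1388 genes, 11.4% higher and 7.79% lower, all of them also called by edgeR in the same direction.

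**Figure D2:**
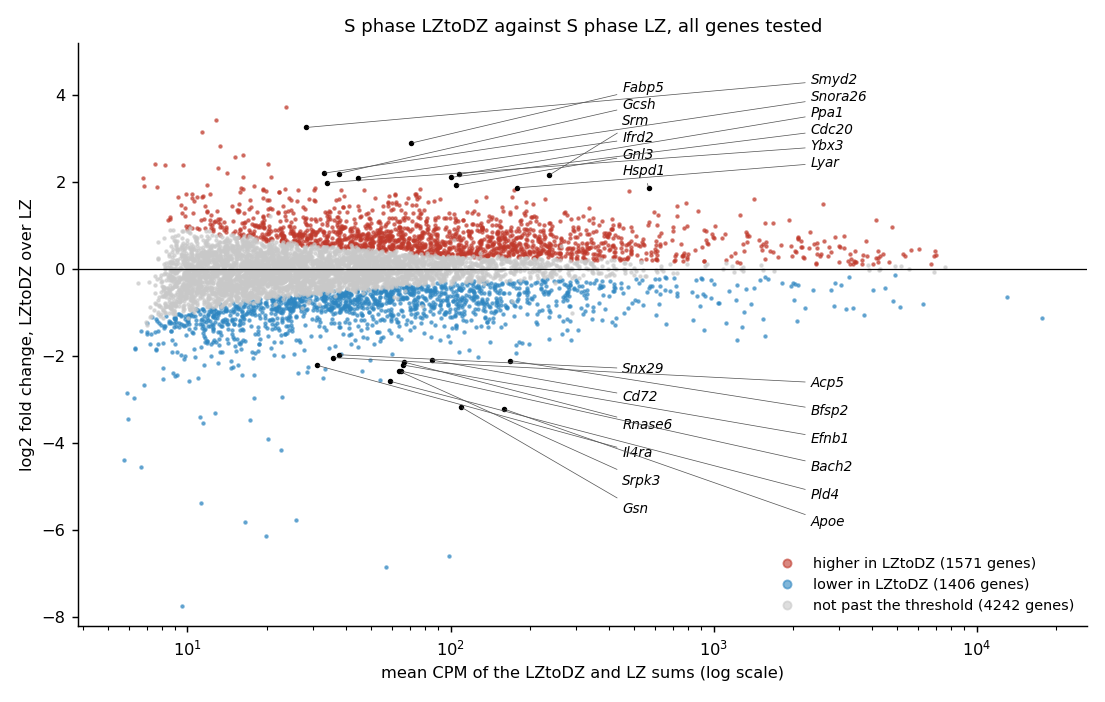
Each point is 1 of the 7219 genes tested, with its mean CPM in the LZtoDZ and LZ sums on a log axis and its log2 fold change, LZtoDZ over LZ, on the other. The named points are the 12 largest increases and the 12 largest decreases with a mean of 50 CPM or more in at least 1 of the states compared, which run from 1.86 to 3.25 and from -1.97 to -3.21, and the 7 lowest points are immunoglobulin variable segments.

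The largest increase among well-expressed genes was that of Smyd2, a protein lysine methyltransferase. It stood at 60.6, 40.3 and 53.3 CPM in the LZtoDZ sums of mice 1 to 3, against 5.22, 5.10 and 5.23 CPM in the LZ sums. LZ levels were nearly equal in the 3 mice and far below every LZtoDZ level. The log2 fold change was 3.25 ± 0.25 (SE, adjusted p = 4.2e-08). At an equal depth of 5000 UMIs per cell Smyd2 was seen in 20.8% of LZtoDZ, 1.84% of LZ and 2.24% of DZ cells, and without thinning in 51.9%, 4.49% and 4.53%.

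Fabp5, a carrier of fatty acids that is induced in activated lymphocytes, had 165, 76.2 and 135 CPM in LZtoDZ sums, against 16.4, 16.2 and 15.7 CPM in LZ sums (2.89 ± 0.20, adjusted p = 1.2e-08). Mouse 2 was the lowest of the LZtoDZ sums and still well above every LZ sum. Srm, the spermidine synthase of polyamine production, had 416, 320 and 425 CPM against 94.7, 83.5 and 80.8 CPM (2.15 ± 0.10, adjusted p = 2.3e-10). After thinning, Srm was seen in 81.1% of LZtoDZ, 30.6% of LZ and 22.1% of DZ cells.

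The other large increases were Snora26, a small nucleolar RNA (2.20 ± 0.21), Gcsh, a subunit of the mitochondrial glycine cleavage system (2.20 ± 0.22), Ppa1, which hydrolyses pyrophosphate (2.17 ± 0.12), and Cdc20, an activator of the anaphase-promoting complex (2.11 ± 0.13). Ifrd2, a ribosome-binding protein (2.09 ± 0.20), Ybx3, a nucleic acid-binding protein (1.98 ± 0.21), the nucleolar proteins Gnl3 (1.92 ± 0.12) and Lyar (1.86 ± 0.10), and Hspd1, the mitochondrial chaperonin Hsp60 (1.86 ± 0.07), completed the 12. None of the 12 overlapped between LZtoDZ and LZ sums, as was the case for 51.8% of all genes tested.

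Matching for depth reduced the sizes of these increases without ending a call, with Smyd2 at 2.40, Fabp5 at 2.07 and Srm at 1.53. Without the cells above 20000 UMIs, an alternative chosen after the data were seen, Cdc20 (0.70, adjusted p = 0.18) and Ybx3 (1.05, adjusted p = 0.098) lost their calls.

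Promoter windows (250 bases before to 50 after an annotated start, from RefSeq on GRCm38.p6) were available for 9 of these 12 genes. They were searched for CACGTG, the canonical E-box bound by Myc with Max, which reads the same on both strands. It was found in 2 of their 10 windows, against 11% of the 7024 windows of genes tested, 7.15% of all 32851 windows, 6 of 32 windows of the ribosome biogenesis list, 2 of 12 windows of the MHC class II list, which was lower, and 0 of 21 windows of the 12 largest decreases. Both windows are shown because they belong to genes of the largest increases. The capitals mark the E-box, which begins at position -140 relative to the start of Ppa1 (chr10:61648371-61648670, plus strand) and at -80 in a window of Hspd1 (chr1:55088194-55088493, minus strand).
Ppa1: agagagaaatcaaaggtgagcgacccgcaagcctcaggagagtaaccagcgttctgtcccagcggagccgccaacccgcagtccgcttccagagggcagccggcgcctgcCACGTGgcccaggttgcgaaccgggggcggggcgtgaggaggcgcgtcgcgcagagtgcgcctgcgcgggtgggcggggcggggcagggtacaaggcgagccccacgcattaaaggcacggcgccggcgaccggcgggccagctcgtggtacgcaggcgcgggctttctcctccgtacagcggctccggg
Hspd1: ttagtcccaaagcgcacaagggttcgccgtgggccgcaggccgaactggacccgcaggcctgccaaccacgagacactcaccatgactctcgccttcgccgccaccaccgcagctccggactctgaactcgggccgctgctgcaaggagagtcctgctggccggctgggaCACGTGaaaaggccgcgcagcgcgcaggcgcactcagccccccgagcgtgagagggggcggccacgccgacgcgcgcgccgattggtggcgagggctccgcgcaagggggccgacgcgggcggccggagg

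Genes of ribosome biogenesis rose almost without exception. Of 34 genes of nucleolar ribosome assembly 33 were higher and 0 lower, and their median log2 fold change was 1.22, beside -0.02 for all genes. Their summed level was 11600, 10616 and 11047 CPM in LZtoDZ sums, against 4397, 4480 and 4492 CPM in LZ sums. Rrp9, which binds the small nucleolar RNA U3, changed by 1.83 ± 0.18, the ribosome assembly factor Mrto4 by 1.81 ± 0.10 and the rRNA methyltransferase Nop2 by 1.55 ± 0.15. Ncl (nucleolin), one of the most abundant nucleolar proteins, had 1964, 1653 and 1703 CPM in LZtoDZ sums and 755, 747 and 731 CPM in LZ sums (1.24 ± 0.06, adjusted p = 9.0e-11). Utp20 was the 1 gene not called (0.54, adjusted p = 0.18).

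The difference was seen in most of these cells. They were set apart by the activation score, whose genes are not known here, so this share may not be independent of the annotation. In cells thinned to 5000 UMIs, the list gave a median of 50 UMIs in 106 LZtoDZ cells, 20 in 653 LZ cells and 19 in 894 DZ cells. The 90th percentile of LZ cells was 35 UMIs, which 96 of 106 LZtoDZ cells and 62 of 653 LZ cells exceeded. The thinning left out 82 LZ and 56 DZ cells and no LZtoDZ cell. Counts of calls stayed at 27 of 34 after matching for depth and 31 of 34 without the cells above 20000 UMIs, beside backgrounds of 12.8% and 10.4% of genes higher in those comparisons.

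**Figure D3:**
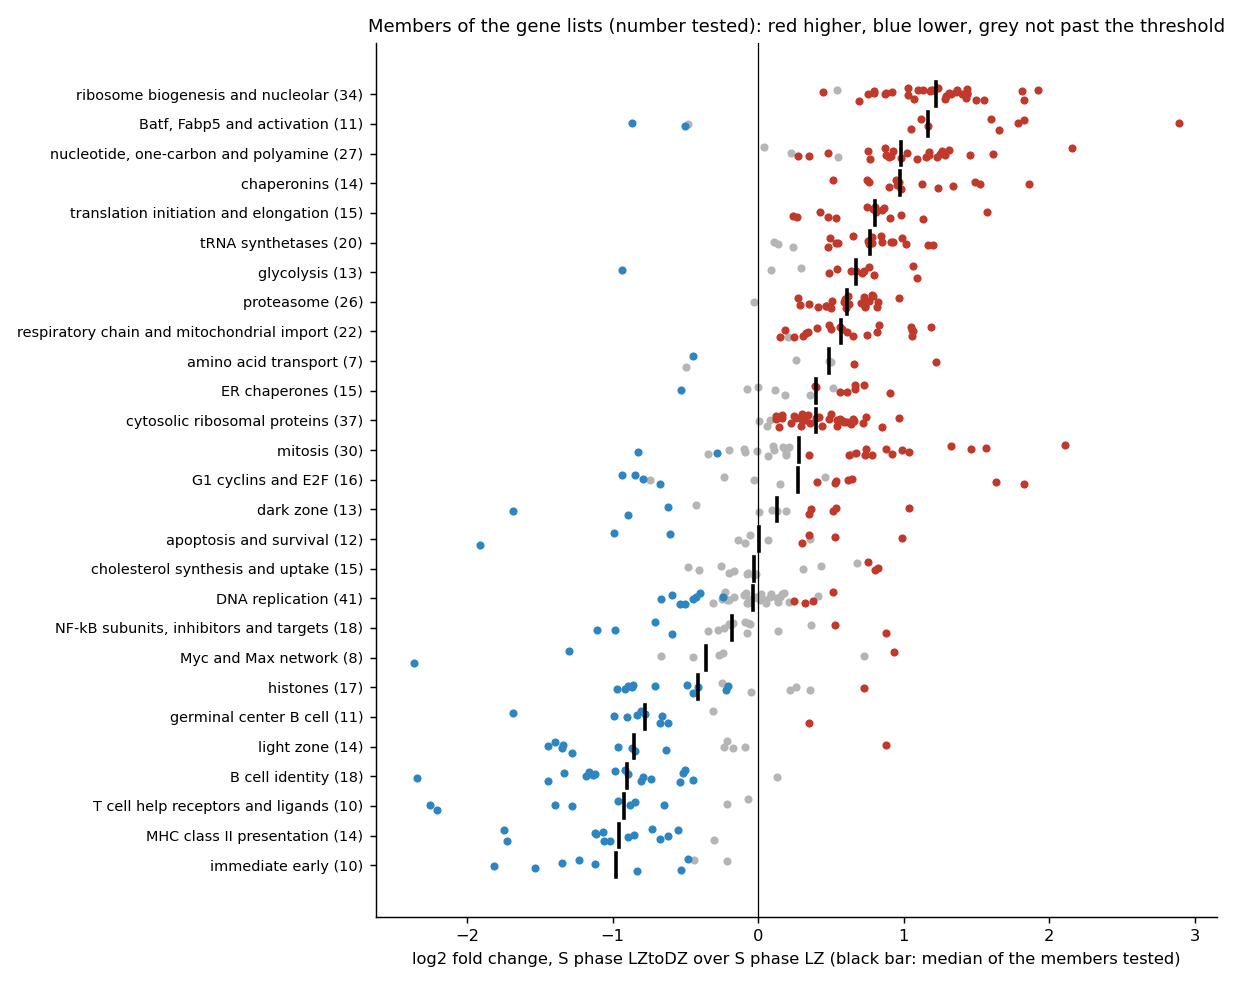
Each point is a gene of a list, placed by its log2 fold change between the LZtoDZ and LZ sums of S phase cells, with red for higher, blue for lower and grey for not past the threshold, and black bars are medians. Medians run from 1.22 for ribosome biogenesis to -0.98 for immediate early genes, and DNA replication lies at -0.04.

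Biosynthesis beyond the nucleolus followed. Of 27 genes of nucleotide, one-carbon and polyamine synthesis 24 were higher and 0 lower (median 0.98), among them Shmt1, the cytosolic serine hydroxymethyltransferase (1.61 ± 0.14), Cad, which starts pyrimidine synthesis (1.45 ± 0.23), and Pfas of purine synthesis (1.31 ± 0.23). Odc1, the ornithine decarboxylase upstream of Srm, had 288, 272 and 254 CPM in LZtoDZ sums, against 110, 106 and 124 CPM in LZ sums (1.23 ± 0.10, adjusted p = 1.0e-07). Cad missed the threshold after matching for depth (0.60, adjusted p = 0.18), and both Cad (0.81, adjusted p = 0.087) and Pfas (0.67, adjusted p = 0.15) after matching for replication and mitosis transcripts. Of 20 aminoacyl-tRNA synthetases 17 were higher (median 0.77), led by Cars (1.20 ± 0.23) and Rars (1.17 ± 0.13), of which Cars lost its call without the cells above 20000 UMIs (0.97, adjusted p = 0.11). All 15 translation factors were higher (median 0.80), with Eef1e1, a component of the multisynthetase complex, at 1.57 ± 0.13 and Eif5a, which helps ribosomes past stalling sequences, at 1.13 ± 0.04.

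Protein folding and turnover genes moved the same way. All 14 chaperonin and Hsp90 genes were higher (median 0.97). Hspd1 had 912, 892 and 868 CPM in LZtoDZ sums, against 260, 224 and 245 CPM in LZ sums, and its partner Hspe1 changed by 1.52 ± 0.06. Hspa9, the mitochondrial Hsp70, changed by 1.49 ± 0.10 and Hsp90aa1 by 1.34 ± 0.06. Of 26 proteasome genes 25 were higher (median 0.61), with Psmc6 at 0.97 ± 0.10. Of 37 cytosolic ribosomal protein genes 34 were higher, by small amounts (median 0.40), with Rps2 highest at 0.97 ± 0.04. These 37 genes took 134371, 147970 and 143582 CPM in LZtoDZ sums, against 108656, 109052 and 109188 CPM in LZ sums.

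Energy metabolism showed the same direction. Of 22 respiratory chain and mitochondrial import genes 21 were higher (median 0.57), among them the import channel Tomm40 (1.19 ± 0.09), the outer membrane pore Vdac1 (1.07 ± 0.09) and cytochrome c, Cycs (1.06 ± 0.08). Of 13 glycolysis genes 10 were higher and 1 lower (median 0.68). Ldha, the lactate dehydrogenase subunit, had 2147, 2184 and 2042 CPM in LZtoDZ sums, against 1023, 1012 and 990.0 CPM in LZ sums (1.06 ± 0.05, adjusted p = 6.3e-11), and Pgam1 changed by 1.09 ± 0.07. Hk1, a hexokinase, was the 1 gene lower (-0.94 ± 0.36, adjusted p = 0.048), on 16 UMIs in LZtoDZ cells. Its call was lost when mouse 1 (-1.01, adjusted p = 0.12) or mouse 3 (-0.62, adjusted p = 0.33) was left out, and under the DESeq2 Wald test (-0.95, adjusted p = 0.42).

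Myc itself was higher, with a large spread between mice. It had 205, 86.6 and 63.5 CPM in LZtoDZ sums, against 63.4, 47.8 and 55.0 CPM in LZ sums, with a log2 fold change of 0.93 ± 0.20 (adjusted p = 0.0016). Mouse 1 stood far above the others, mouse 3 was barely above the highest LZ sum, and without mouse 1 the difference missed the threshold (0.49, adjusted p = 0.10). Without the cells above 20000 UMIs the difference in Myc was larger (1.46, adjusted p = 2.9e-04). After thinning, Myc was seen in 30.2% of LZtoDZ, 16.1% of LZ and 10.9% of DZ cells. Of 8 genes of the Myc and Max network 1 was higher and 2 lower (median -0.36), a share close to the 41.2% of all genes called. The lower ones were Mxd4 (-2.36 ± 0.29) and Mxd3 (-1.30 ± 0.24), both Max-binding repressors, while Max itself had 94.0 ± 10.8 CPM in LZtoDZ and 111 ± 8.52 CPM in LZ sums (SD, n = 3 mice) and did not pass the test (adjusted p = 0.12). Mxd3 missed the threshold after matching for replication and mitosis transcripts (-1.03, adjusted p = 0.065).

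Among activation genes, Batf, a transcription factor of activated lymphocytes, had 99.9, 108 and 139 CPM in LZtoDZ sums, against 32.8, 28.8 and 48.1 CPM in LZ sums (1.65 ± 0.14, adjusted p = 1.7e-07). All LZtoDZ sums lay above all LZ sums. C1qbp, a mitochondrial matrix protein, changed by 1.78 ± 0.08, and 8 of the 11 genes of this list were higher and 2 lower (median 1.17). Slc7a5, the light chain of the large amino acid transporter, was higher on few UMIs (33.1 ± 5.60 against 13.8 ± 2.10 CPM, 1.22 ± 0.24, adjusted p = 6.7e-04), and missed the threshold after matching for depth (0.98, adjusted p = 0.066). Its partner Slc3a2 changed by 0.66 ± 0.12, and lost its call after matching for replication and mitosis transcripts (0.31, adjusted p = 0.24). Of 7 amino acid transporters 2 were higher and 1 lower, a share close to the 41.2% of all genes called. The lower one was Slc1a5 (-0.45 ± 0.11), a call that ended without the replicate block (-0.44, adjusted p = 0.30) and with DESeq2 (-0.45, adjusted p = 0.15). Of 15 cholesterol genes 3 were higher, Lss and Idi1 among them, and 0 lower, with a median of -0.03, and the share higher was no larger than the background of 21.8%. After matching for depth Lss (0.50, adjusted p = 0.36) was not called.

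A smaller share of replication genes than of all genes passed the test. Which genes the authors' S phase call rests on is not stated here. Replication and mitosis genes may therefore not be independent of that selection. Mcm5, a subunit of the replicative helicase, had 442, 400 and 444 CPM in LZtoDZ sums, against 420, 418 and 433 CPM in LZ sums (0.00 ± 0.07, adjusted p = 0.98), and the ranges overlapped. Of 41 DNA replication genes 4 were higher and 8 lower, beside 41.2% of all genes, with a median of -0.04. The lower ones included Prim1, the primase subunit (-0.67 ± 0.11), Rfc2 of the clamp loader (-0.59 ± 0.08) and the DNA ligase Lig1 (-0.53 ± 0.09). The summed level was 8133, 8253 and 8518 CPM in LZtoDZ sums, against 8731, 8849 and 8742 CPM in LZ sums. Of 17 histone genes 11 were lower and 1 higher (median -0.41), beside 19.5% and 21.8% of all genes. H2afx, the variant phosphorylated at DNA breaks, had 306, 344 and 348 CPM against 616, 610 and 615 CPM (-0.89 ± 0.07), and H3f3a changed by -0.91 ± 0.04, while H2afz was higher (0.73 ± 0.04). Without the cells above 20000 UMIs 4 of 17 histone genes were lower, beside 7.87% of all genes.

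Mitotic transcripts differed although both sides were called S phase, a call of which these genes may not be independent. Of 30 mitosis genes 14 were higher and 2 lower (median 0.28), beside 21.8% and 19.5% of all genes. Ccnb2, a mitotic cyclin, had 141, 227 and 192 CPM in LZtoDZ sums, against 60.4, 71.0 and 57.8 CPM in LZ sums (1.57 ± 0.12, adjusted p = 3.0e-08). Ccnb1 changed by 1.46 ± 0.17 and the centromere histone Cenpa by 1.32 ± 0.11, although Cenpa lost its call without the cells above 20000 UMIs (0.60, adjusted p = 0.093). There 4 of 30 mitosis genes were higher and 2 lower, beside 10.4% and 7.87% of all genes, and the median turned to -0.16. Mki67, the proliferation marker, had 342 ± 53.0 CPM against 302 ± 24.9 CPM and did not pass the test (adjusted p = 0.13), and was lower without the cells above 20000 UMIs (-0.45, adjusted p = 0.034). The median cell held 3287 CPM of the mitosis list in LZtoDZ and 2008 CPM in LZ cells, and the part of this difference in the other results was not tested beyond the following match. When each LZtoDZ cell was matched to the LZ cell nearest in replication and mitosis transcripts, 7 of 29 mitosis genes were higher and 4 lower (median 0.10). Ribosome biogenesis then had 27 of 34 genes higher (median 0.97, background 13.8%), and MHC class II 12 of 14 lower (median -0.99, background 13.0%).

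Regulators of G1 split. Of 16 genes of G1 cyclins and E2F factors 7 were higher and 4 lower, beside 21.8% and 19.5% of all genes. Ccnd2, the D cyclin induced by mitogens, had 36.03, 37.3 and 37.4 CPM in LZtoDZ sums, against 5.96, 13.9 and 10.1 CPM in LZ sums (1.83 ± 0.26, adjusted p = 2.8e-05). Its LZtoDZ levels were nearly equal and all above LZ, yet after matching for replication and mitosis transcripts it stood at 0.56 (adjusted p = 0.32). Ccnd3, the D cyclin of dark zone divisions, was higher by 0.54 ± 0.07, and Cdk6 by 1.64 ± 0.24, while E2f1 (18.7 ± 9.28 against 20.2 ± 0.690 CPM) did not pass the test (adjusted p = 0.94). Rbl1 (-0.94 ± 0.22), a relative of the retinoblastoma protein, and E2f2 (-0.85 ± 0.21) were lower. Without the cells above 20000 UMIs Ccnd3 (0.01, adjusted p = 0.96) and Rbl1 (-0.38, adjusted p = 0.43) lost their calls, as did E2f2 without mouse 1 (-0.68, adjusted p = 0.088).

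**Figure D4:**
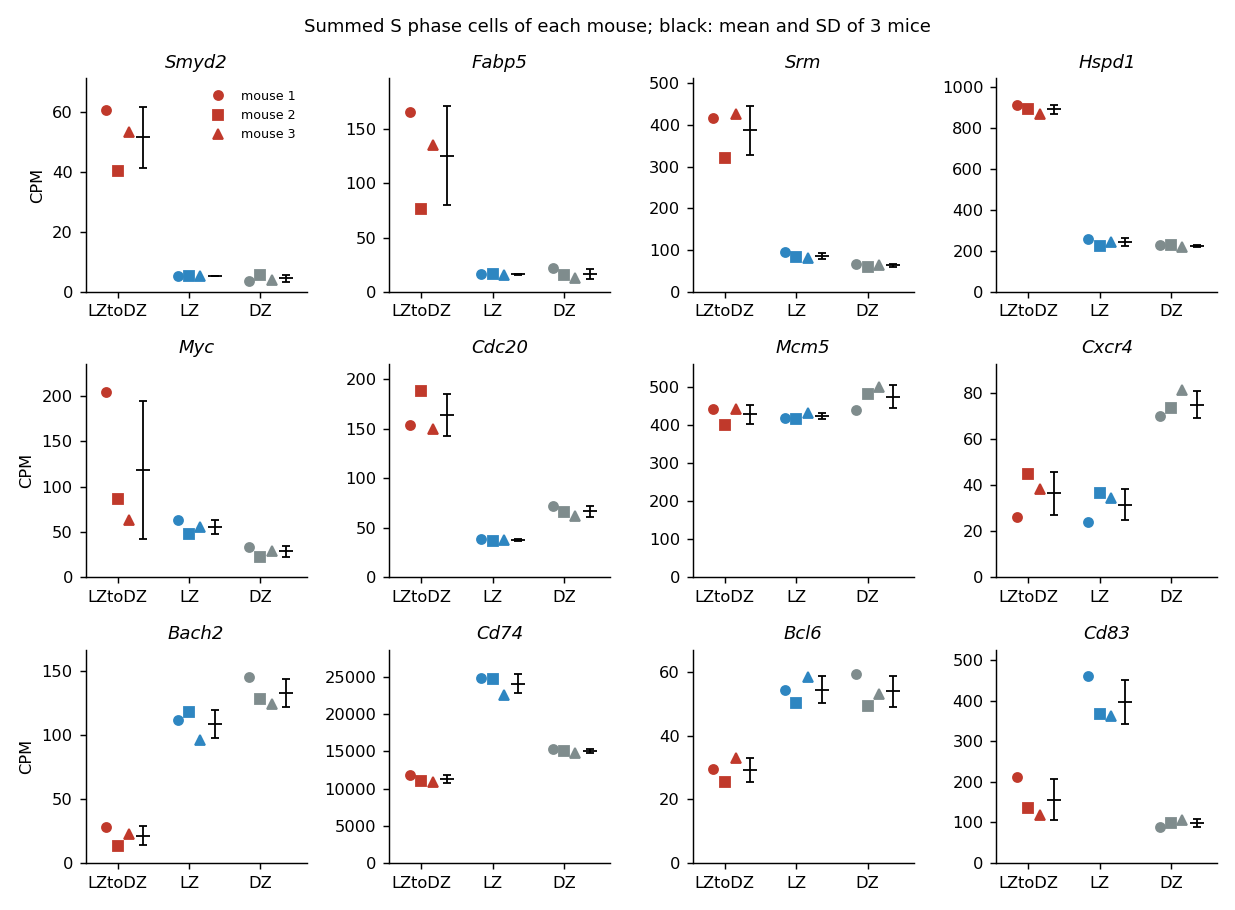
Each panel shows 1 gene in CPM for the summed S phase LZtoDZ, LZ and DZ cells of 3 mice (symbols), with the mean and SD in black. Smyd2, Fabp5, Srm, Hspd1 and Cdc20 are higher in LZtoDZ sums than in both other states, Bach2, Cd74 and Bcl6 lower than in both, Mcm5 lies at 429, 424 and 475 CPM on average, and Cxcr4 and Cd83 place LZtoDZ sums near 1 state each.

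The antigen presentation pathway on MHC class II was lower as a group. Of 14 genes 13 were lower and 0 higher (median -0.96), and the list summed to 20370, 18252 and 18872 CPM in LZtoDZ sums, against 41001, 39946 and 36887 CPM in LZ sums. Cd74, the invariant chain that guards the peptide groove, had 11867, 10992 and 10870 CPM in LZtoDZ sums, against 24942, 24734 and 22658 CPM in LZ sums (-1.11 ± 0.03, adjusted p = 5.2e-13). The H2-O genes H2-Oa (-1.74 ± 0.11) and H2-Ob (-1.72 ± 0.10), which restrain peptide exchange, led the list, and their target H2-DMa changed by -1.12 ± 0.07. Per cell, 12 of the 14 genes had more UMIs in the LZtoDZ cells of all 3 mice, and H2-Oa and H2-Ob had fewer. Cd74 averaged 228 UMIs in LZtoDZ and 207 UMIs in LZ cells, and H2-Oa 1.67 and 2.33 UMIs. After thinning to 5000 UMIs the list gave a median of 85.5 UMIs in LZtoDZ, 205 in LZ and 126.5 in DZ cells.

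Genes of B cell identity were lower too, 17 of 18 (median -0.90), beside 19.5% of all genes. Bach2, a repressor that holds B cells back from plasma cell fate, had 27.8, 13.4 and 22.7 CPM in LZtoDZ sums, against 112, 117 and 95.8 CPM in LZ sums (-2.34 ± 0.19, adjusted p = 9.3e-08). Every LZtoDZ sum lay far below every LZ sum. It was seen after thinning in 10.4% of LZtoDZ, 42.0% of LZ and 50.7% of DZ cells, and was lower per cell as well, at 0.434 against 0.922 UMIs. The antigen receptor chains Cd79b (-1.33 ± 0.05) and Cd79a (-1.18 ± 0.04) were lower, while Pax5, the factor that commits cells to the B lineage, differed little (-0.45 ± 0.13, adjusted p = 0.014). Pax5 missed the threshold without mouse 2 (-0.36, adjusted p = 0.090), without mouse 3 (-0.44, adjusted p = 0.083) and after matching for depth (-0.49, adjusted p = 0.058). Without the cells above 20000 UMIs 10 of 18 genes were lower, beside 7.87% of all genes.

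None of the 3 plasma cell genes tested was called in the sums of all cells, with Jchain at 0.06 (adjusted p = 0.42), Xbp1 at 0.11 (adjusted p = 0.41) and Mzb1 at -0.09 (adjusted p = 0.23). Without the cells above 20000 UMIs Jchain (-0.66, adjusted p = 0.0043) and Mzb1 (-0.40, adjusted p = 0.021) were lower. Irf4 was too low to test (6.73 ± 1.94 against 7.31 ± 1.49 CPM). Prdm1, which encodes Blimp-1, was seen in 0 of 106 LZtoDZ cells, which allows a share of up to 2.83% of cells with a captured UMI. This limit covers counting error only and says nothing of cells that express the gene below capture. Of 15 ER chaperones 8 were higher and 1 lower (median 0.40), beside 21.8% and 19.5% of all genes, led by Hsp90b1 (0.91 ± 0.09). Without the cells above 20000 UMIs 1 was higher, no larger a share than the 10.4% of all genes.

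The largest decreases included Apoe, apolipoprotein E, with 34.4, 40.3 and 17.0 CPM in LZtoDZ sums, against 427, 288 and 150 CPM in LZ sums (-3.21 ± 0.15, adjusted p = 1.0e-10). Its level varied by mouse, with mouse 3 lowest in both states. Gsn, the actin-severing protein gelsolin, had 32.8, 19.4 and 15.9 CPM against 211, 197 and 180 CPM (-3.16 ± 0.16, adjusted p = 3.3e-10). The others were Pld4, an endolysosomal exonuclease (-2.58 ± 0.18), Srpk3, a splicing factor kinase (-2.35 ± 0.17), Bach2, Il4ra, the interleukin-4 receptor (-2.21 ± 0.23), Efnb1, ephrin-B1, a ligand at contacts with T cells (-2.20 ± 0.24), and Rnase6 (-2.14 ± 0.17). Bfsp2 (-2.10 ± 0.12), the inhibitory receptor Cd72 (-2.09 ± 0.18), the phosphatase Acp5 (-2.03 ± 0.29) and the sorting nexin Snx29 (-1.97 ± 0.23) completed the 12. All 12 had fewer UMIs per cell in LZtoDZ cells, with Apoe at 0.594 against 2.21 UMIs. Acp5 missed the threshold after matching for depth (-1.16, adjusted p = 0.073).

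Most GC genes were lower in LZtoDZ cells, and dark zone genes were called in both directions when all cells were kept. Of 11 GC genes 9 were lower and 1 higher than in LZ cells (median -0.77). Bcl6, the master regulator of GC cells, changed by -0.90 ± 0.18 (adjusted p = 8.4e-04), and Foxo1, a factor of the dark zone, by -0.89 ± 0.19. With DESeq2 Bcl6 just missed the threshold (-0.91, adjusted p = 0.057), and Foxo1 missed it without the cells above 20000 UMIs (-0.49, adjusted p = 0.31). Cxcr4, the receptor that draws cells into the dark zone, had 26.2, 44.8 and 38.5 CPM in LZtoDZ sums, against 23.9, 36.7 and 34.5 CPM in LZ sums, with overlapping ranges (0.19 ± 0.19, adjusted p = 0.46). Of 13 dark zone genes 5 were higher and 3 lower (median 0.13), beside 21.8% and 19.5% of all genes. Without the cells above 20000 UMIs 0 were higher and 1 lower (median -0.23), beside 10.4% and 7.87%. With cells matched in depth 2 were higher and 3 lower, beside 12.8% and 12.3%.

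Light zone markers were lower in the sums of all cells. Of 14 genes 9 were lower and 1 higher (median -0.85). Cd83, an activation marker of the light zone, had 213, 136 and 119 CPM in LZtoDZ sums, against 460, 368 and 363 CPM in LZ sums (-1.39 ± 0.10, adjusted p = 2.4e-08), and Cd86, the costimulatory ligand, changed by -1.28 ± 0.16. Of 10 receptors and ligands of T cell help 8 were lower and 0 higher, beside 19.5% and 21.8% of all genes. Among them the ICOS ligand Icosl stood at -2.25 ± 0.26. Cd40, which receives the main signal of T cell help, had 95.0, 74.7 and 65.8 CPM against 91.7, 90.02 and 84.6 CPM and did not pass the test (-0.21 ± 0.13, adjusted p = 0.21). Of 10 immediate early genes 8 were lower, beside 19.5% of all genes, with Klf6 at -1.82 ± 0.28 and Egr1 at -1.53 ± 0.21. Of 18 genes of NF-kB signalling 2 were higher and 4 lower (median -0.18), beside 21.8% and 19.5% of all genes, with the inhibitor Tnfaip3 at -1.10 and, without the cells above 20000 UMIs, at 0.10. Nfkbia, an inhibitor induced by NF-kB itself, had 296, 223 and 171 CPM against 285, 217 and 253 CPM (adjusted p = 0.24).

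These last groups differed by depth within the LZtoDZ state. The 55 LZtoDZ cells above 20000 UMIs and the 51 at or below it were compared as a description, in CPM of their raw totals, with the split chosen after the data were seen. The light zone list summed to 644, 657 and 545 CPM in the deeper cells of mice 1 to 3 and 2759, 1757 and 1755 CPM in the shallower ones, beside 2103, 1816 and 1892 CPM in all LZ cells. The NF-kB list gave 775, 729 and 630 CPM in the deeper, 1947, 1485 and 1444 CPM in the shallower and 1246, 1081 and 1156 CPM in LZ cells. Deeper cells lay below LZ cells in both lists, and shallower ones above them for NF-kB.

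Single genes split in the same way. Batf had 32.2, 73.7 and 88.0 CPM in the deeper cells and 216, 173 and 256 CPM in the shallower ones, and Ccnd2 9.90, 17.9 and 19.7 CPM against 81.1, 79.2 and 78.7 CPM. LZ cells had 33.2, 29.2 and 49.7 CPM of Batf and 6.04, 14.1 and 10.4 CPM of Ccnd2. Deeper cells were thus close to LZ cells in Ccnd2, and in Batf for mouse 1. Ccnd3 ran the other way, at 735, 703 and 609.8 CPM in the deeper and 356, 465 and 476 CPM in the shallower cells, as did Cdc20 and the mitosis list (3884, 3908 and 3824 against 2664, 2920 and 2468 CPM). Ribosome biogenesis differed little between them, at 11532, 10203 and 10898 CPM in the deeper and 10926.5, 9830 and 10075 CPM in the shallower cells, beside 4451, 4553 and 4643 CPM in LZ cells. Myc had 196, 49.8 and 47.0 CPM in the deeper, 207, 163 and 98.4 CPM in the shallower and 64.1, 48.6 and 56.9 CPM in LZ cells. Shallower cells lay above LZ cells in Myc in all 3 mice, and deeper ones clearly so only in mouse 1.

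**Figure D5:**
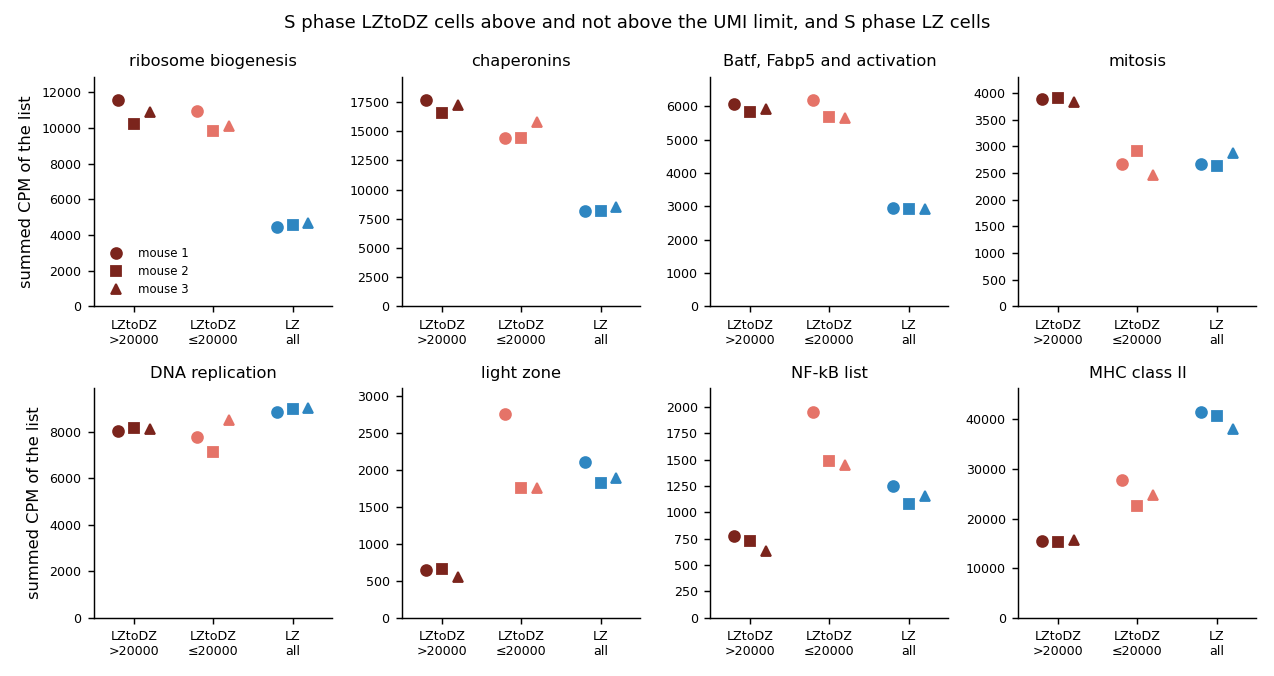
Each panel gives the summed CPM of 1 gene list, on raw totals, in S phase LZtoDZ cells above 20000 UMIs, LZtoDZ cells at or below 20000 UMIs and all LZ cells, with a symbol for each of 3 mice. Ribosome biogenesis, chaperonins and activation genes are high in both sets of LZtoDZ cells, while the light zone and NF-kB lists are low in the deeper set, and NF-kB is above the LZ level in the shallower set in all 3 mice.

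Refitted without the cells above 20000 UMIs in either state, LZtoDZ cells differed from LZ cells in 1179 genes (10.4% higher, 7.87% lower). The light zone list then had 1 gene higher and 1 lower of 14 (median 0.02), T cell help 3 of 10 lower, immediate early genes 0 of 10 lower and NF-kB 4 higher and 1 lower of 18 (median 0.62). Nfkbia passed the test there as higher (0.72, adjusted p = 0.0016), Cd40 stood at 0.48 (adjusted p = 0.076), and Cd83 was lower by less (-0.43, adjusted p = 0.044). Cd86 (-0.11, adjusted p = 0.76), Egr1 (-0.47, adjusted p = 0.36) and Klf6 (-1.30, adjusted p = 0.052) lost their calls. Ribosome biogenesis (median 1.12) and MHC class II (11 of 14 lower, median -0.67) changed less.

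Against S phase DZ cells, LZtoDZ cells differed in 2893 of 7915 genes, 1533 higher (19.4%) and 1360 lower (17.2%). This comparison uses the same LZtoDZ sums as the one with LZ cells, so its values are given beside those and not as separate support. The 34 ribosome biogenesis genes had 33 higher (median 1.46) and the 14 chaperonin genes 14 higher (median 0.91). MHC class II had 11 of 14 lower and 1 higher (median -0.38, against -0.96 in the comparison with LZ cells), and B cell identity 17 of 18 lower (median -0.62). Of the 14 light zone genes 5 were higher and 0 lower than in DZ cells, and of the 13 dark zone genes 9 were lower and 4 higher. Cxcr4 was lower (-1.04 ± 0.15), Cd83 higher (0.62 ± 0.16), and Nfkbia higher (1.68 ± 0.14). Ccnd2 stood at 36.9 ± 0.778 CPM in LZtoDZ, 9.99 ± 3.98 CPM in LZ and 0.537 ± 0.536 CPM in DZ sums, where DZ cells held only 6 UMIs.

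Few genes passed a test of whether the difference between LZtoDZ and LZ cells was another one outside S phase. The test of the difference between these contrasts called 65 of 7771 genes (0.836%), 11 more positive and 54 more negative in S phase, and 119, 13 and 5 when mouse 1, 2 or 3 was left out. Cells outside S phase differ in phase mix, since 42 of 59 LZtoDZ and 243 of 1478 LZ cells there were in G2/M, so phase and state cannot be told apart in that comparison. Of 41 DNA replication genes 11 were more negative in S phase and 0 more positive, and of 34 ribosome biogenesis genes 0 were called either way.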

How the data were processed

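Single-cell 5' RNA libraries were sorted, hashed and captured as described above, and 12 libraries contribute to 1 pooled matrix. The deposited matrix holds UMI counts of the authors for 13886 genes in 6000 cells, and the deposited cell table gives the authors' states, cell cycle calls, mouse and module scores (a score has no fixed unit). Cell Ranger, Seurat, GRCm38 and mm10 are named in the submitters' processing notes. No source used here states how cells were filtered or doublets handled, and no doublet caller was run. Depths are given in the report.

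For each mouse and state the counts were added up and tested with edgeR 4.0.16 (R 4.3.3; TMM scaling, default expression filter, quasi-likelihood F test, Benjamini-Hochberg adjustment over all genes), with mouse as a block because both states come from the same animals. Deviations of same-mouse sums correlated at 0.165, 0.0780 and 0.160 over 7219 genes. DESeq2 1.42.0 was an alternative. Scripts used Python 3.11.15 with numpy 2.4.6, pandas 2.3.3 and scipy 1.17.1, and the test was run on simulated data. The simulated counts had the same dispersion for all genes and no differences between mice, so they do not give the error rate in these data. Nothing states that the mice differ in more than identity. With mouse as a block, p-values measure the state difference against an estimate of how much it varies across the 3 mice. This estimate shares information across genes, so it is not the spread of that gene alone.

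Genes named are the 12 largest increases and 12 largest decreases past the threshold, in the same direction in 3 of 3 mice. These had a mean of 50 CPM or more in the higher state, with immunoglobulin segments and predicted genes left out. The leading called genes of each list and a fixed set were also named. Utp20, Irf4, H2afz, Jchain, Xbp1, Mzb1 and the immunoglobulin variable segments and constant genes were added after their values were seen. Members and lists were chosen with earlier results of these data known. The deposited table has no S or G2/M score, so cells were matched on summed replication and mitosis transcripts. Alternatives tried were scaling, filter, block, leaving out each mouse, thinning, matching of depth or cycle transcripts, equal cell numbers and removal of several cell sets. Results for some genes are not reported here.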

Additional observations from a re-analysis of the deposited data

Results flagged for a closer look

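For 6 of the named genes, the difference between LZtoDZ and LZ cells was not the same in S phase as in the other phases (edgeR interaction test, adjusted p under 0.05). Srm, the spermidine synthase, was -0.798 on the log2 scale (adjusted p = 0.0148): it had 373 CPM in LZtoDZ and 88.1 CPM in LZ cells in S phase, and 383 and 49.9 CPM outside it. Shmt1 was -1.56 (adjusted p = 0.00428), with 132 and 46.0 CPM in S phase and 146 and 15.6 CPM outside it. For both, LZtoDZ levels were alike in the 2 settings and LZ levels were higher in S phase.

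Rfc2 was -0.670 (adjusted p = 0.0148), Lig1 -1.08 (adjusted p = 0.0125) and H2afx -0.688 (adjusted p = 0.0381). Lig1 had 221 CPM in LZtoDZ and 337 CPM in LZ cells in S phase, and 115 and 89.7 CPM outside it. Ccnb2 was the 1 gene with a positive difference, 0.829 (adjusted p = 0.0300), with 179 and 64.3 CPM in S phase and 188 and 120 CPM outside it. Each of the 6 missed the threshold when at least 1 mouse was left out, and the phase mix outside S phase differs between the states.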

How the results depend on the processing

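The count of genes that differed between LZtoDZ and LZ cells in S phase was 2977, and 2966 with no replicate block (1570 higher, 1396 lower), that is, without the pairing by mouse. It lay between 2127 and 2705 when 1 mouse was left out (1135 to 1432 higher, 992 to 1273 lower). It was 1388 with the DESeq2 Wald test (826 higher, 562 lower), 1322 with cells thinned to 5000 UMIs (705 and 617), 1451 with cells matched in depth (741 and 710), 1468 with cells matched in replication and mitosis transcripts (758 and 710), 1558 with equal cell numbers (779 and 779) and 1179 without cells above 20000 UMIs (672 and 507). Thinning, matching and the removal of cells also test fewer genes on fewer UMIs. Of the members of the gene lists 343 passed, 303 to 330 without 1 mouse and 211 without cells above 20000 UMIs; this alternative was chosen after the data were seen.

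Against DZ cells 2893 genes passed, 2916 with no replicate block, 2039 to 2665 without 1 mouse, 1580 with DESeq2, 1407 thinned, 1403 matched in depth and 1341 without cells above 20000 UMIs. The test between S phase and other phases called 65 genes, 55 with no replicate block, 165 with DESeq2, 262 with no filter on low counts and 5 to 119 without 1 mouse. The S phase share lay between 60.4% and 69.0% for LZtoDZ cells and 32.2% and 33.8% for LZ cells without 1 mouse.

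Of 123 named genes past the threshold 48 missed it under at least 1 alternative, and 3 of them turned direction: Hmmr (-0.13) and Tnfaip3 (0.10) without cells above 20000 UMIs, and Lig1 (0.092) with all phases. The other reversals were of genes that had not passed. With cells thinned, Cd40 stood at 0.058, Cxcr4 at -0.063, Mcm5 at -0.078 and Nfkbia at 0.17. With equal cell numbers, Cd40 stood at 0.15, Mcm5 at -0.11 and Nfkbia at 0.013. With cells matched in replication and mitosis transcripts, Max stood at 0.050, E2f1 at 0.17 and Mki67 at -0.14, and with cells matched in depth, Mki67 at -0.19 and Mcm5 at -0.0016. Without cells above 20000 UMIs, Max stood at 0.15, Cd40 at 0.48, Cxcr4 at -0.38, Mki67 at -0.45 (now past the threshold as lower, adjusted p = 0.034), Mcm5 at -0.051 and Nfkbia at 0.72 (past the threshold as higher, adjusted p = 0.0016). With all phases, E2f1 stood at 0.21 and Nfkbia at 0.0061, and without cells holding RNA of other types, E2f1 at 0.0091. Mcm5 stood at -0.025 with no filter, -0.012 without cells near the score boundary and -6.2e-05 without immunoglobulin genes. Leaving out 1 mouse gave -0.52 to 0.23 for E2f1, -0.29 to 0.026 for Nfkbia and -0.033 to 0.040 for Mcm5. The cause of these changes was not tested.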

Other observations

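Immunoglobulin genes were lower on balance: of 88 tested, 4 were higher and 40 lower in LZtoDZ than in LZ cells (median -0.75). The shares over all genes were 21.8% higher and 19.5% lower. The 7 lowest fold changes of all genes were variable segments, and they differed by mouse. Igkv3-4 had 0, 1.49 and 1.13 CPM in LZtoDZ sums, against 9.69, 215 and 114 CPM in LZ sums and 87.6, 40.0 and 5.91 CPM in DZ sums. Igkv12-44 had 283, 774 and 4.53 CPM in LZtoDZ sums, against 209, 240 and 67.9 CPM in LZ sums (adjusted p = 0.31). Among constant genes, Igkc had 755, 742 and 718 CPM in LZtoDZ sums, against 1186, 994 and 1178 CPM in LZ sums (-0.61, adjusted p = 9.9e-07). Iglc1 (-1.04), Iglc2 (-0.97), Iglc3 (-0.43) and Ighm (-0.38) were lower too. Ighg1, Ighg2b, Ighg2c, Ighg3 and Igha were not called. Each LZtoDZ sum rests on 32 to 42 cells, and clones were not analysed here.

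Of 12 apoptosis and survival genes 4 were higher and 3 lower (median 0.01), beside 21.8% and 19.5% of all genes. The lower ones were Bbc3, which encodes the death inducer Puma (-1.91), the death receptor Fas (-0.99) and the survival factor Mcl1 (-0.61). Bbc3 rests on 8 UMIs in LZtoDZ cells and was too low to test once cells were matched in depth or in replication and mitosis transcripts, or without cells above 20000 UMIs. Mcl1 lost its call with DESeq2 (adjusted p = 0.15), after matching for replication and mitosis transcripts (adjusted p = 0.085) and without cells above 20000 UMIs (adjusted p = 0.17). Birc5 (0.99), Bax (0.53), Bid (0.35) and Bak1 (0.30) were higher, but with cells matched in depth Bid (adjusted p = 0.085) and Bak1 (adjusted p = 0.51) missed the threshold. Klf2, a factor of resting lymphocytes and the 1 memory gene tested, stood at -2.21 on 9 UMIs in LZtoDZ cells, and at -1.44 (adjusted p = 0.15) without cells above 20000 UMIs.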
